A study of Sus scrofa with 40 samples.

Results

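PRDX2, PRDX6, NQO1 and TXNRD1 are 4 enzymes that remove peroxides and quinones or keep the thioredoxin cycle running, and they are followed here through subcutaneous fat and liver of pigs. Every probe set of the porcine array whose single gene symbol in the platform annotation is one of these 4 was taken, which gave 6 probe sets of 23999 and 4 gene symbols of 6765. PRDX2 was read by Ssc.16653.1.S1_at, PRDX6 by Ssc.2979.1.S1_at, NQO1 by Ssc.1142.1.S1_at, and TXNRD1 by 3 probe sets, Ssc.22447.1.S1_at, Ssc.6097.1.S1_a_at and Ssc.6097.1.S1_at, which are kept apart throughout. The pigs were prepubertal Yorkshire gilts, 6 months old and heterozygous for an MC4R variant (named D298N in some of the sample labels), so that all groups carry it. Residual feed intake (RFI) is how far a pig's feed intake departs from the intake predicted for its growth and upkeep, and low RFI pigs are the efficient ones. The 8 groups were low RFI pigs restricted to 80% of maintenance feed for 8 days, low RFI pigs fed ad libitum, high RFI pigs restricted in the same way and high RFI pigs fed ad libitum, each in fat and in liver, with 5 arrays a group and 40 arrays in all. The labels do not tie a fat array to the liver array of the same pig, and p-values measure the spread between arrays of a group.

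Peroxiredoxins reduce hydrogen peroxide and organic hydroperoxides through a reactive cysteine. PRDX2, a cytosolic peroxiredoxin abundant in red blood cells, is returned to its reduced form by thioredoxin, which thioredoxin reductase 1 (TXNRD1, a selenium-containing enzyme) recharges with electrons from NADPH, whereas PRDX6 is reduced with glutathione and also acts on phospholipids. NQO1 reduces quinones with NADH or NADPH, and both NQO1 and TXNRD1 are known targets of the transcription factor NRF2. In fat the same NADPH also feeds fatty acid synthesis.

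Values are linear intensities of 1-colour arrays, and effects are differences of log2 intensity from limma fits over all probe sets tested in a tissue, with Benjamini-Hochberg adjusted p-values and a threshold of 0.05. All 6 probe sets passed the filter on low signal in both tissues and lay above the 40th percentile of their own array on 20 of 20 arrays in each. Each tissue carried its own markers: the mean log2 level of 9 adipocyte genes was 11.9 to 12.9 across fat arrays and 5.26 to 6.30 across liver arrays, and that of 17 hepatocyte genes was 4.60 to 7.87 on 19 fat arrays and 14.4 to 15.0 in liver. The 20th fat array (low RFI restricted, replicate 5) stood at 11.9 for the hepatocyte genes, and results in fat are also given without it. The mean log2 level of 16 skeletal muscle genes was 4.94 to 12.5 across fat arrays, and none of the 16 passed the threshold for diet. Markers that did pass in fat were APOA1 (0.82) of hepatocytes, CFD (0.62) and LPL (-0.40) of adipocytes, and CLDN5 (0.80) and TEK (0.58) of 10 endothelial genes. The means of these lists did not pass by diet (exact permutation, adjusted p = 0.466, 0.952 and 0.492). Erythroid and fibroblast genes are given below. In bulk tissue, fewer cells of a type and less RNA per cell cannot be told apart.

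PRDX2, PRDX6 and NQO1 were lower in restricted than in ad libitum fat of both lines. NQO1 moved most, 2.43-fold lower in restricted fat, while PRDX6 was 1.51-fold and PRDX2 1.47-fold lower. Of the 6 probe sets, 6 passed the threshold for diet in fat, 5 of them lower and 1 of them (TXNRD1 Ssc.22447.1.S1_at) higher. Across all 15498 probe sets tested in fat, 25.8% passed, 10.7% lower and 15.1% higher.

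PRDX2 in low RFI fat read 5917, 6775, 6579, 6043 and 5589 in restricted pigs, against 8313, 9233, 9229.7, 10654 and 9954 in ad libitum pigs. In high RFI fat it read 7098, 6076, 6573, 7157 and 7018 in restricted pigs, against 9924, 9847, 7548, 9347 and 11375 in ad libitum pigs. The diets did not overlap: the highest restricted array stood at 7157 and the lowest ad libitum array at 7548, a full separation downward that 1.01% of the probe sets tested in fat showed. PRDX2 averaged 6482 ± 548 in restricted fat and 9542 ± 1092 in ad libitum fat (SD, n = 10 each), a log2 difference of -0.55 (SE 0.0731, limma adjusted p = 2.19e-05). The difference passed in each line, at -0.62 in low RFI pigs (adjusted p = 0.00106) and -0.49 in high RFI pigs (adjusted p = 0.00606). Of 5 erythroid marker genes 2 were tested in fat and they moved in opposite directions. HBB (beta globin) moved by 0.36 (limma adjusted p = 0.017) and ALAS2 (the heme synthesis enzyme of red cells) by -0.88 (adjusted p = 0.0371). With the mean of all 5 erythroid genes as a covariate, those below the filter included, the PRDX2 difference was -0.57. The part of red cells in this difference was not tested.

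PRDX6 in low RFI fat read 4038, 6564, 6729, 5083 and 5278 in restricted pigs, against 6796, 9296, 8499, 10328 and 9137 in ad libitum pigs. In high RFI fat it read 7863, 5961, 6906, 6748 and 6052 in restricted pigs, against 10156, 10160.3, 7161, 10164 and 10266 in ad libitum pigs. Low RFI diets did not overlap, while in high RFI fat the highest restricted array lay above the lowest ad libitum array and the other 4 ad libitum arrays lay within 10156 to 10266. PRDX6 averaged 6122 ± 1094 in restricted fat and 9196 ± 1317 in ad libitum fat (SD, n = 10 each), a log2 difference of -0.59 (SE 0.10, limma adjusted p = 0.000294). It passed in low RFI pigs at -0.68 (adjusted p = 0.00561) and in high RFI pigs at -0.51 (adjusted p = 0.0312).

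NQO1 in low RFI fat read 879, 919, 1324, 931 and 941 in restricted pigs, against 2836, 3059, 2742, 3369.9 and 1983 in ad libitum pigs. In high RFI fat it read 865, 1471, 1599.6, 1152 and 954 in restricted pigs, against 2305, 2319, 1355, 3017 and 4309 in ad libitum pigs. All 5 restricted low RFI arrays were below all 5 ad libitum ones, and in high RFI fat 1 ad libitum array lay among the restricted ones. NQO1 averaged 1103 ± 269 in restricted fat and 2729.6 ± 809.9 in ad libitum fat (SD, n = 10 each), a log2 difference of -1.28 (SE 0.17, limma adjusted p = 2.06e-05). It passed in low RFI pigs at -1.48 (adjusted p = 0.000703) and in high RFI pigs at -1.08 (adjusted p = 0.00815).

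**Figure D1:**
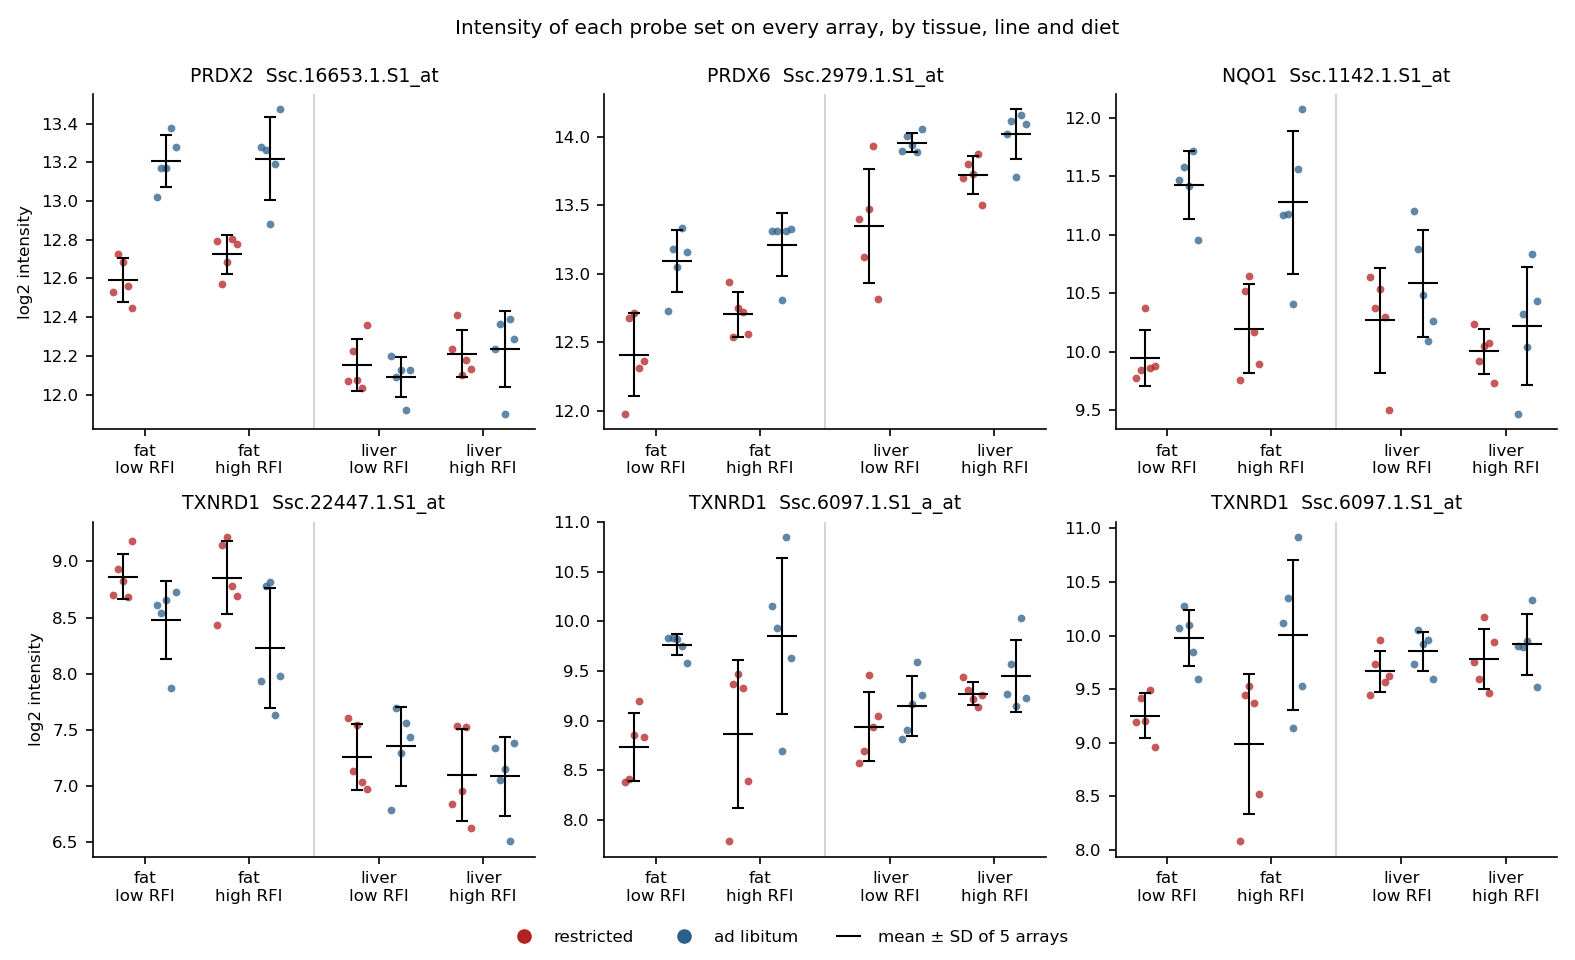
Log2 intensity (y axis) of each of the 6 probe sets on every array, by tissue and line (x axis), restricted in red left of ad libitum in blue, with the mean and SD of 5 arrays in black. PRDX2, PRDX6 and NQO1 lie lower in restricted than in ad libitum fat of both lines, and in liver the diets overlap for every probe set.

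The 3 TXNRD1 probe sets did not move together in fat. Ssc.6097.1.S1_a_at and Ssc.6097.1.S1_at, which share 1 target accession in the annotation, were 2.01-fold and 1.83-fold lower in restricted fat, and Ssc.22447.1.S1_at was 1.42-fold higher. Ssc.6097.1.S1_a_at in low RFI fat read 333, 339.6, 462, 585 and 457 in restricted pigs, against 913, 913, 905, 861 and 767 in ad libitum pigs. In high RFI fat Ssc.6097.1.S1_a_at read 219.8, 660.4, 709, 641 and 335 in restricted pigs, against 1142, 978, 413, 1851 and 793 in ad libitum pigs. The diets separated in low RFI fat and overlapped in high RFI fat, where ad libitum replicate 3 was the lowest ad libitum array. The log2 difference was -1.01 over both lines (SE 0.23, limma adjusted p = 0.00325), and neither line passed alone (-1.03, adjusted p = 0.0514 in low RFI and -0.99, adjusted p = 0.0614 in high RFI pigs).

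Ssc.6097.1.S1_at in low RFI fat read 583, 683, 589, 718 and 497 in restricted pigs, against 1075, 1238, 1097, 919.6 and 775 in ad libitum pigs. In high RFI fat it read 270.3, 697, 739, 661 and 366 in restricted pigs, against 1111, 1304, 561, 1939 and 737 in ad libitum pigs. As for Ssc.6097.1.S1_a_at, the diets overlapped in high RFI fat only. The log2 difference was -0.87 (SE 0.21, limma adjusted p = 0.00392). High RFI pigs passed at -1.02 (adjusted p = 0.0318) and low RFI pigs, at -0.73, did not (adjusted p = 0.12), with an interaction of 0.30 (95% interval -0.56 to 1.15, adjusted p = 1).

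Ssc.22447.1.S1_at in low RFI fat read 417, 488, 455, 411 and 580.2 in restricted pigs, against 392, 373, 403, 234 and 423 in ad libitum pigs. In high RFI fat it read 346, 565, 596, 439.8 and 414 in restricted pigs, against 245, 439, 450.1, 198 and 252 in ad libitum pigs. The diets overlapped in both lines, and 5 of 10 restricted arrays lay above every ad libitum array. The log2 difference was 0.50 (SE 0.16, limma adjusted p = 0.0224), with 0.38 in low RFI pigs (adjusted p = 0.301) and 0.63 in high RFI pigs (adjusted p = 0.0819).

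That these probe sets disagree in fat was known when the enzymes were chosen, so their ratios on the same array are given as a description, with no test. The log2 ratio of Ssc.22447.1.S1_at to Ssc.6097.1.S1_a_at was 0.060 ± 0.43 in restricted fat and -1.45 ± 0.88 in ad libitum fat (SD, n = 10 each), a shift of 1.51. Its ratio to Ssc.6097.1.S1_at was -0.26 ± 0.38 in restricted fat and -1.64 ± 0.79 in ad libitum fat, a shift of 1.38, whereas the ratio of Ssc.6097.1.S1_a_at to Ssc.6097.1.S1_at shifted by -0.14. In liver the 3 ratios shifted by -0.032 to 0.15.

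Arrays numbered 1 and 2 and arrays numbered 3 to 5 separated on the first principal component of each tissue, so relations among the TXNRD1 probe sets were taken within each set of numbers, as 12 relations in all, each over both diets. In fat Ssc.6097.1.S1_a_at and Ssc.6097.1.S1_at followed each other, with r = 0.92 and rho = 0.93 on the 8 arrays numbered 1 and 2. On the 12 arrays numbered 3 to 5 they had r = 0.97 and rho = 0.97. Both fell with restriction, which enters r, and they share 1 target accession, so no p is given for this pair in fat. Without the 2 arrays farthest from the median of the first-named probe set, r of this pair was 0.83 and 0.91. Ssc.22447.1.S1_at and Ssc.6097.1.S1_a_at had r = -0.69 and rho = -0.66 on the arrays numbered 3 to 5. Without the 2 arrays farthest from the median of Ssc.22447.1.S1_at, r weakened to -0.31. On the arrays numbered 1 and 2 that pair had r = -0.24. Ssc.22447.1.S1_at and Ssc.6097.1.S1_at in fat had r = -0.65 on numbers 3 to 5 and -0.093 on numbers 1 and 2. The opposite diet shifts of these pairs in fat were known beforehand and enter r, so no p is given for them. In liver Ssc.6097.1.S1_a_at and Ssc.6097.1.S1_at had r = 0.69 and rho = 0.63 on numbers 3 to 5 (permutation adjusted p = 0.0352 and 0.101), with r = 0.43 without the 2 farthest arrays, and r = 0.36 on numbers 1 and 2 (exact permutation adjusted p = 0.657). The 4 liver relations of Ssc.22447.1.S1_at had r from -0.50 to -0.049, with adjusted p of 0.198 or more by permutation.

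**Figure D2:**
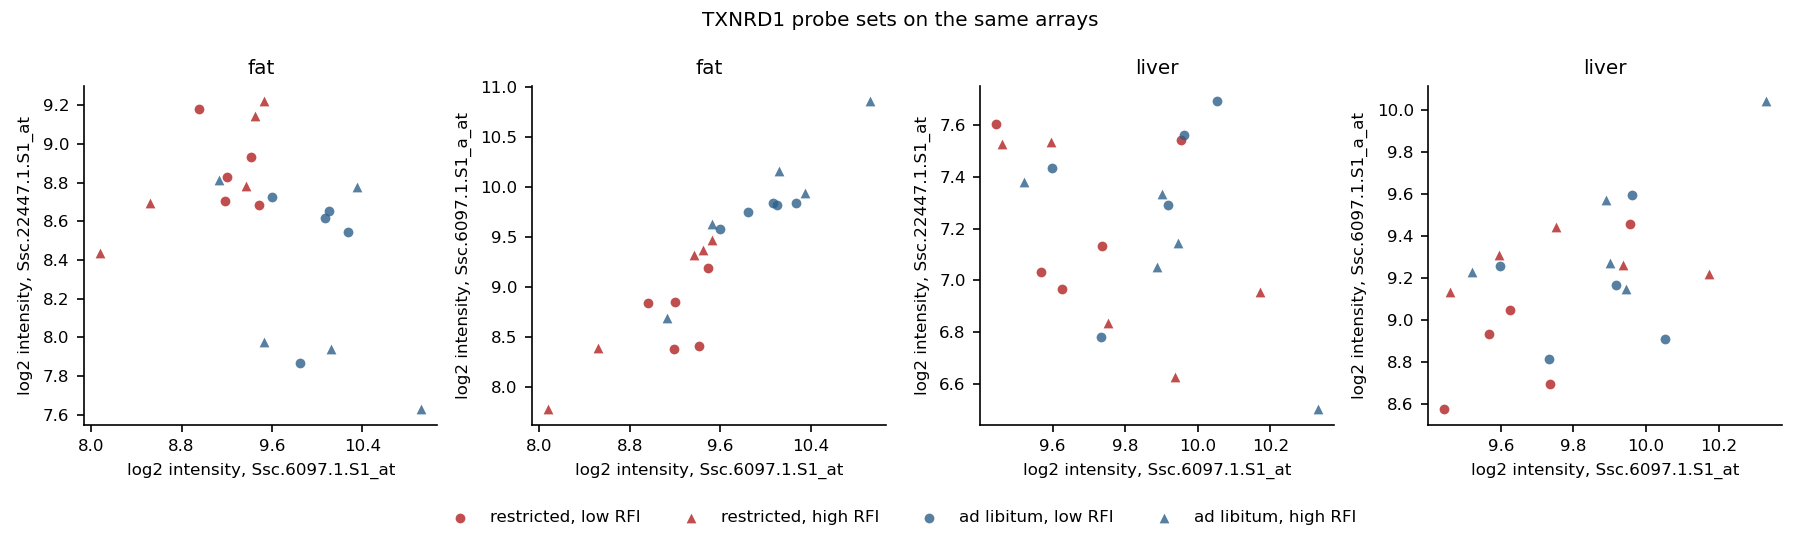
Log2 intensity of TXNRD1 probe sets Ssc.22447.1.S1_at and Ssc.6097.1.S1_a_at (y axes) against Ssc.6097.1.S1_at (x axes) on the same arrays of fat (left pair) and liver (right pair), restricted in red and ad libitum in blue, circles for low and triangles for high RFI. In fat the panel of both Ssc.6097.1 probe sets runs along 1 rising line, and Ssc.22447.1.S1_at does not follow them.

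Some technical measures of the fat arrays moved with diet. The log2 ratio of the 3′ to the 5′ control probe set of GAPDH was 1.88 ± 0.52 in restricted fat and 1.19 ± 0.37 in ad libitum fat (SD, n = 10 each, exact permutation, adjusted p = 0.0441 over 40 tests), and the array median was 0.11 higher in restricted fat on the log2 scale (exact permutation, adjusted p = 0.0298). The same control ratio of actin did not pass, at 1.90 ± 0.59 in restricted fat and 1.80 ± 0.42 in ad libitum fat (exact permutation, adjusted p = 0.957). With both control ratios (GAPDH and actin) in the model all 3 TXNRD1 probe sets lost their call, at 0.27 for Ssc.22447.1.S1_at (adjusted p = 0.371), -0.85 for Ssc.6097.1.S1_a_at (adjusted p = 0.0779) and -0.73 for Ssc.6097.1.S1_at (adjusted p = 0.0839). PRDX2 (-0.52, adjusted p = 0.00204), PRDX6 (-0.64, adjusted p = 0.00411) and NQO1 (-1.12, adjusted p = 0.00349) kept theirs. Over all 15498 probe sets tested in fat, calls for diet came to 1840 in this setting, against 3999 without the covariates. The mean log2 level of 7 fibroblast genes was 11.0 to 12.1 in restricted fat and 11.5 to 12.1 in ad libitum fat (exact permutation, adjusted p = 0.0298). Of the 7, 3 passed in limma, all lower (LUM, DPT and THY1). Among the others, COL1A2 (-0.60) and COL3A1 (-0.12) lay below 0 and DCN (0.16) and FBLN1 (0.23) above 0, none passing. The part of this mean in the 6 results was not tested.

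Single arrays changed the size of the fat results. High RFI ad libitum replicate 3 was the lowest ad libitum array for PRDX2, NQO1, Ssc.6097.1.S1_a_at and Ssc.6097.1.S1_at and the highest for Ssc.22447.1.S1_at. On that array the GAPDH ratio of 1.81 was the highest and the actin ratio of 1.32 the lowest of the 10 ad libitum fat arrays. Without it the log2 differences were -0.60 for PRDX2, -0.65 for PRDX6, -1.39 for NQO1, 0.58 for Ssc.22447.1.S1_at, -1.16 for Ssc.6097.1.S1_a_at and -0.98 for Ssc.6097.1.S1_at, and all 6 passed. Without low RFI restricted replicate 5, the array with the hepatocyte signal, they were -0.54, -0.59, -1.27, 0.47, -1.02 and -0.84 in the same order, and all 6 passed, with the largest adjusted p at 0.043 for Ssc.22447.1.S1_at.

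In liver PRDX6 alone among the 6 probe sets passed the threshold for diet, 1 of 6, where 0.919% of the 15677 probe sets tested in liver passed. PRDX6 in low RFI liver read 10829, 8920.2, 11359, 15663 and 7214 in restricted pigs, against 15229, 16419.7, 15694, 15193 and 17056 in ad libitum pigs. In high RFI liver it read 13322, 14301, 13569, 14971 and 11609 in restricted pigs, against 16606, 17747, 13349.7, 18253 and 17443 in ad libitum pigs. The diets overlapped in both lines, and the restricted low RFI arrays spread most, from 7214 to 15663. PRDX6 averaged 12176 ± 2703 in restricted liver and 16299 ± 1466 in ad libitum liver (SD, n = 10 each), 1.37-fold lower, with a log2 difference of -0.45 (SE 0.10, limma adjusted p = 0.0373). The call is near the threshold: it was lost in 20 of 31 alternative settings, 15 of which leave out 1 array, with adjusted p from 0.00554 to 0.403 over all of them and the direction kept. The mean log2 level of the 7 fibroblast genes also differed by diet in liver, at 8.88 ± 0.13 in restricted liver and 9.32 ± 0.19 in ad libitum liver (SD, n = 10 each, difference -0.44, exact permutation, adjusted p = 0.00126 over 40 tests), with 0 of the 7 genes passing alone in limma, and its part in the PRDX6 result was not tested. Within lines PRDX6 was -0.61 in low RFI pigs (adjusted p = 0.095) and -0.30 in high RFI pigs (adjusted p = 0.748).

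The other 5 probe sets did not pass in liver. PRDX2 ranged from 4198 to 5445 with a median of 4555 in restricted liver and from 3822 to 5367 with a median of 4586 in ad libitum liver, a log2 difference of 0.02 whose 95% interval of -0.14 to 0.17 does not reach the fall seen in fat. NQO1 ranged from 724 to 1598 with a median of 1143 in restricted liver and from 708 to 2358 with a median of 1329 in ad libitum liver, a log2 difference of -0.27 (95% interval -0.62 to 0.09, adjusted p = 0.575). For TXNRD1 the log2 differences were -0.04 for Ssc.22447.1.S1_at, -0.19 for Ssc.6097.1.S1_a_at and -0.16 for Ssc.6097.1.S1_at, with adjusted p of 0.954, 0.601 and 0.607. The liver ranges of both diets overlapped for all 5.

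**Figure D3:**
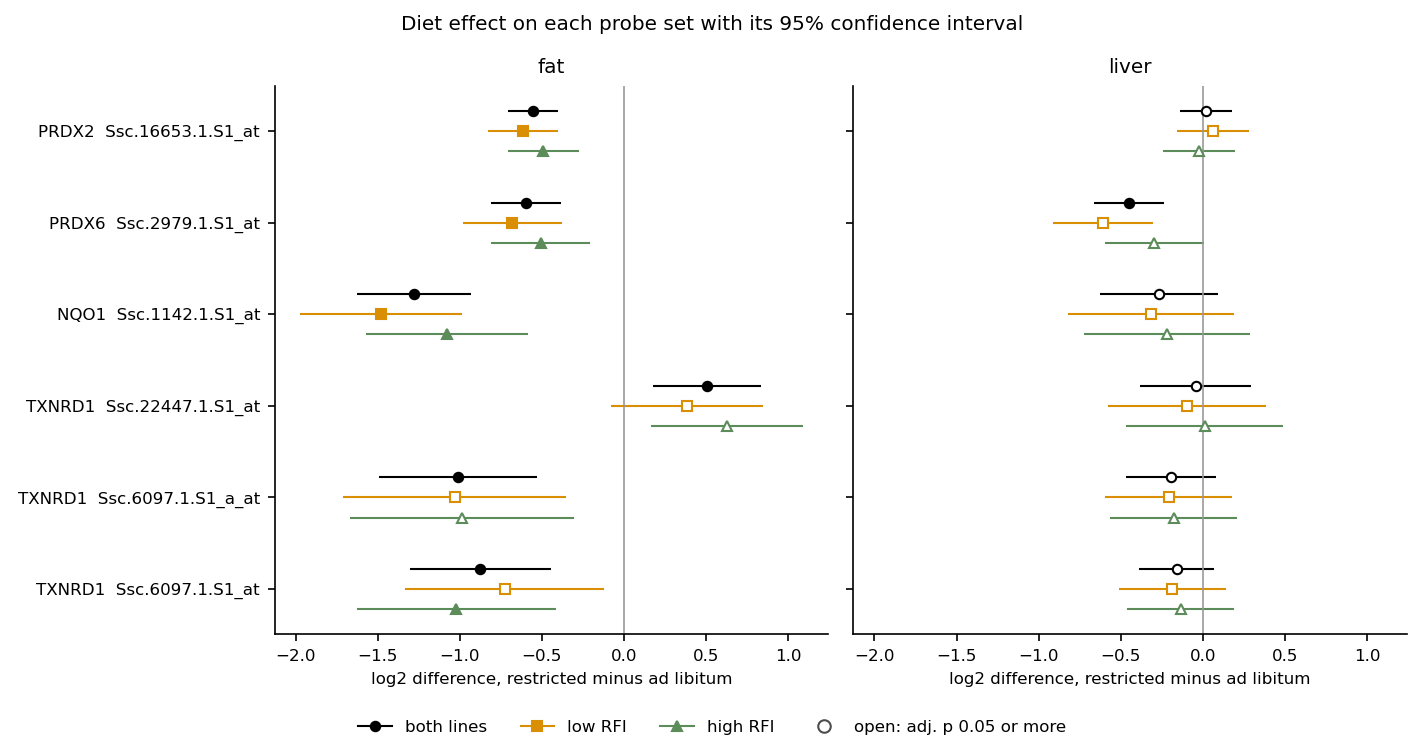
Log2 difference, restricted minus ad libitum (x axis), with its 95% confidence interval for each probe set (y axis) in fat and liver, over both lines and within each line, filled where the limma adjusted p is below 0.05. In fat 5 probe sets lie left of 0 and Ssc.22447.1.S1_at lies right of it, and in liver only PRDX6 over both lines is filled.

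Whether diet acted differently in fat and in liver was tested on all 40 arrays. The series design names 20 pigs, 10 of each line. Because the labels give no pairs, this fit takes the fat and liver arrays as independent. The comparison of levels between tissues below does the same. The diet effect in fat minus that in liver was -0.57 for PRDX2 (SE 0.0995, limma adjusted p = 0.000162) and -1.01 for NQO1 (SE 0.25, adjusted p = 0.00565). It was -0.82 for Ssc.6097.1.S1_a_at and -0.71 for Ssc.6097.1.S1_at, with adjusted p of 0.0483 and 0.0484, calls that were lost in 35 and 31 of 49 alternative settings. With these, 4 of 6 probe sets passed, where 10.9% of the 14001 probe sets tested in both tissues did. PRDX6 fell in both tissues and its effects did not differ beyond their error (-0.14, 95% interval -0.44 to 0.15, adjusted p = 0.613), and Ssc.22447.1.S1_at did not pass (0.55, adjusted p = 0.12).

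The levels themselves differed between the tissues. Averaged over lines and diets, PRDX2 was 1.70-fold higher in fat than in liver (log2 difference 0.76, adjusted p = 7.3e-17), NQO1 1.36-fold higher on average (adjusted p = 0.00149) and Ssc.22447.1.S1_at 2.66-fold higher (adjusted p = 3.55e-14), while PRDX6 was 1.87-fold lower in fat (log2 difference -0.91, adjusted p = 4.29e-14). Ssc.6097.1.S1_a_at (0.10, adjusted p = 0.498) and Ssc.6097.1.S1_at (-0.25, adjusted p = 0.0575) did not pass, so 4 of 6 did, where 78.8% of the probe sets tested in both tissues passed. The direction for NQO1 did not hold in restricted pigs, whose geometric mean was 1077 in fat and 1125 in liver, while it was 2615 in fat and 1352 in liver of ad libitum pigs.

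Ordered by geometric mean, the 8 groups of PRDX2 ran from ad libitum fat (9526 in high RFI and 9444 in low RFI) through restricted fat (6772 in high RFI and 6165 in low RFI) to the 4 liver groups, between 4363 and 4821. Neighbours in that order had ranges that overlapped in 5 of 7 cases, and the 2 gaps lay between ad libitum and restricted fat and between restricted fat and liver. PRDX6 ran the other way, with the 4 liver groups on top, from 16579 in high RFI ad libitum liver to 10439 in low RFI restricted liver, and low RFI restricted fat lowest at 5445, and 6 of 7 neighbouring ranges overlapped. NQO1 stood highest in low RFI ad libitum fat (2756) and high RFI ad libitum fat (2482) and lowest in low RFI restricted fat (987), with all 7 neighbouring ranges overlapping. Ssc.22447.1.S1_at was highest in low and high RFI restricted fat (466 and 463), whereas Ssc.6097.1.S1_a_at (925) and Ssc.6097.1.S1_at (1031) were highest in high RFI ad libitum fat, and all neighbouring ranges of the 3 TXNRD1 probe sets overlapped.

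No difference between the selection lines passed the threshold: 0 of 6 probe sets passed for line in fat, where 0.0194% of all probe sets passed, and 0 of 6 in liver, where 0.0447% did. At an unadjusted limma p below 0.05 the count was 0 of 6 in fat (7.78% of all) and 2 of 6 in liver (6.53% of all). The 2 were PRDX6, with a low minus high RFI difference of -0.22 (unadjusted p = 0.0486, adjusted p = 0.763), and Ssc.6097.1.S1_a_at, at -0.32 (unadjusted p = 0.0245, adjusted p = 0.687). PRDX6 in fat had a similar difference of -0.21 (95% interval -0.42 to 0.01, adjusted p = 0.657). The remaining line differences were between -0.11 and 0.13 in fat and between -0.10 and 0.32 in liver, the highest being that of NQO1 (95% interval -0.04 to 0.67).

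The diet effect was not shown to depend on line. The limma interaction, the diet effect in low RFI minus that in high RFI pigs, passed for 0 of 6 probe sets in each tissue, as for 0 of all probe sets, and 0 of 6 had an unadjusted p below 0.05, against 1.57% of all probe sets in fat and 3.35% in liver. NQO1 in fat had the largest interaction of the 6, -0.40, with a 95% interval of -1.10 to 0.30. In fat 3 of 6 probe sets passed for diet within low RFI pigs (9.2% of all) and 4 of 6 within high RFI pigs (9.02% of all), and in liver 0 of 6 passed within either line (0.134% and 0.0255% of all). At an unadjusted limma p below 0.05 the liver counts were 1 of 6 in low RFI pigs, PRDX6, where 10.1% of all passed, and 0 of 6 in high RFI pigs, where 6.79% did.

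Other genes of the same pathways were counted in 6 lists, with 60 genes tested in fat and 61 in liver, 1 probe set a gene and without the 4 enzymes above. In fat 21 of 60 genes fell with restriction and 1 rose, against 10.7% and 15.1% of all probe sets, and the median log2 difference was -0.21, against 0.079 over all probe sets. In liver 1 of 61 fell and 0 rose, against 0.542% and 0.376%, with a median of -0.074, against 0.017. Each list gene is read by its probe set of highest signal, whereas the shares cover every probe set tested, so the bases differ. With the filter at the 60th percentile, 1545 of 10622 probe sets fell in fat and 1933 rose. The lists were chosen with earlier results of these data known. They describe how many genes moved and were not tested as sets.

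Among the other peroxiredoxins and sulfiredoxin 2 of 4 genes fell in fat. PRDX1, a cytosolic thioredoxin-dependent peroxiredoxin, fell by 0.92 (adjusted p = 6.17e-05) and PRDX3, its mitochondrial relative, by 0.63 (adjusted p = 4.29e-05) on the log2 scale. In the thioredoxin list 6 of 13 fell, led by 3 enzymes that repair oxidised methionine: MSRB2 fell by 1.03 (adjusted p = 0.000173), MSRA by 0.66 (adjusted p = 0.000283) and MSRB1 by 0.83 (adjusted p = 0.000438). In the glutathione list 3 of 15 fell: GPX4, which reduces lipid hydroperoxides, by 0.50 (adjusted p = 0.000447), GCLM, a subunit of the enzyme that starts glutathione synthesis, by 0.61 (adjusted p = 0.00173), and the glutathione transferase GSTO1 by 0.53 (adjusted p = 0.0125).

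In the list of NADPH supply 5 of 9 genes fell in fat, with a list median of -0.91. ME1, the cytosolic malic enzyme, fell by 2.65 (6.27-fold, adjusted p = 1.94e-07), PGD, a dehydrogenase of the pentose phosphate pathway, by 1.39 (adjusted p = 4.37e-06), and IDH1, the cytosolic isocitrate dehydrogenase, by 1.03 (adjusted p = 8.19e-06). In the list of the NRF2 pathway and its targets 5 of 14 fell, led by TKT (by 1.11, adjusted p = 3.21e-05) and TALDO1 (by 0.97, adjusted p = 6.07e-05), both of the pentose phosphate pathway, and by BLVRA, biliverdin reductase (by 0.65, adjusted p = 0.000604). The only gene of the 6 lists that rose in fat was SOD2, the mitochondrial superoxide dismutase, at 0.46 (adjusted p = 0.00966), 1 of 5 in its list. The call was lost with both control ratios as covariates and on arrays numbered 1 and 2 alone, where 0 list genes rose, and 2 or 3 list genes rose in 9 other settings and without any 1 of 7 fat arrays.

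In liver ME1 was the 1 gene that fell, with a log2 difference of -0.91 (adjusted p = 0.0422). That call is near the threshold: the count of list genes lower in liver was 0 when any 1 of 13 of the 20 liver arrays was left out, and also with no filter, no intensity trend, arrays numbered 1 and 2 alone or erythroid markers as covariate. The 7 arrays whose removal kept a call were low RFI restricted replicates 2, 3 and 5, low RFI ad libitum replicate 1, high RFI restricted replicates 1 and 3 and high RFI ad libitum replicate 2. The genes with the smallest p in the other lists were SQSTM1 at -0.48 (adjusted p = 0.0812), PRDX4 at 0.34 (adjusted p = 0.0969), GCLM at -0.55 (adjusted p = 0.103), CCS at -0.29 (adjusted p = 0.234) and GLRX at 0.22 (adjusted p = 0.311), and none of them passed.

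For line 0 genes of the 6 lists passed in either tissue. The count at an unadjusted limma p below 0.05 was 10 of 60 in fat (7.78% of all probe sets) and 8 of 61 in liver (6.53% of all). The gene with the smallest p of each list in fat was MSRB2 (low minus high RFI -0.74, adjusted p = 0.19), GCLM (-0.41, adjusted p = 0.352), CES1, a carboxylesterase (-1.15, adjusted p = 0.425), IDH1 (-0.32, adjusted p = 0.48), PRDX4 (0.21, adjusted p = 0.535) and SOD2 (0.19, adjusted p = 0.791). In liver these were GLRX5 (-0.35, adjusted p = 0.576), ME3 (-0.90, adjusted p = 0.592), HMOX1, heme oxygenase 1 (-0.39, adjusted p = 0.652), PRDX4 (0.24, adjusted p = 0.655), GSTA4 (-0.73, adjusted p = 0.788) and SOD2 (-0.15, adjusted p = 0.873). PRDX4, a peroxiredoxin of the endoplasmic reticulum, had the same sign in both tissues.

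For the interaction 0 list genes passed as well, with a limma adjusted p of 0.999 or above for each gene named. The count at an unadjusted limma p below 0.05 was 1 of 60 in fat (1.57% of all probe sets) and 4 of 61 in liver (3.35% of all). The smallest p of each list in fat belonged to IDH1 (-0.57), GSTM3 (1.22), TXNRD3 (0.58), PRDX3 (-0.35), EPHX1 (0.60) and CCS (0.11). In liver it belonged to GSR, glutathione reductase (-0.71), ME1 (-1.23), SLC3A2 (0.53), MSRB1 (0.41), SOD2 (0.29) and PRDX3 (-0.14).

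**Figure D4:**
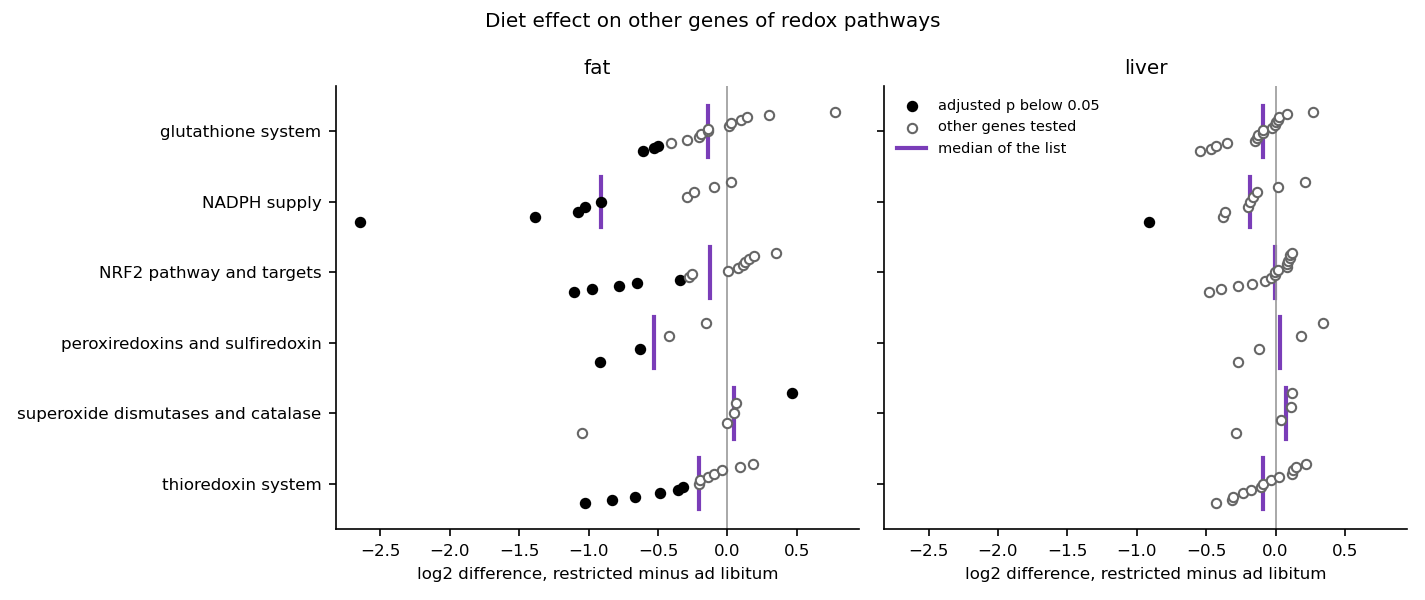
Log2 difference, restricted minus ad libitum (x axis), of each gene in 6 redox lists (y axis) in fat and liver, filled where the limma adjusted p is below 0.05, with the median of each list as a vertical bar. In fat the median of NADPH supply is -0.91, and in liver ME1 is the 1 filled point.

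The genes whose log2 intensity was most like each enzyme over the 20 arrays of a tissue were taken from 5552 genes in fat and 5723 in liver, as a description over arrays of both diets that share scaling, so that genes lower in restricted fat resemble each other through diet. In fat PRDX2 was most like VDAC1, AIFM1 and USMG5 (r = 0.97 for each), and within both sets of numbers r stayed between 0.96 and 0.98. PRDX6 was most like EMC7, TALDO1 and ACSS2 (r = 0.94 for each), NQO1 like TIMM17B (r = 0.94), LOC100522725 and TMLHE (r = 0.93 for each), and TXNRD1 (Ssc.6097.1.S1_at) like NNT (r = 0.87), NRDC (r = 0.82) and ALAS1 (r = 0.81). All 12 of these genes were lower in restricted fat, by 0.26 (NRDC) to 1.95 (ACSS2) on the log2 scale.

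In liver the likeness was weaker. PRDX6 was most like PEX19, SQSTM1 and EPHX1 (r = 0.87, 0.87 and 0.85), of which PEX19 fell with restriction (adjusted p = 0.0449). PRDX2 was most like BTBD10, NCSTN and PRPF4 (r = 0.73, 0.73 and 0.72), NQO1 like KIAA1429, UMAD1 and GULO (r = 0.76, 0.75 and 0.75) and TXNRD1 (Ssc.6097.1.S1_at) like ATG4B, MBD2 and H2AFY (r = 0.72, 0.72 and 0.71). For PRDX2 and TXNRD1 the r of these genes within the arrays numbered 1 and 2 was 0.38 to 0.56, against 0.78 to 0.83 within those numbered 3 to 5. For NQO1 the r was 0.89 and 0.58 with KIAA1429, 0.66 and 0.86 with UMAD1 and 0.96 and 0.72 with GULO, numbers 1 and 2 before numbers 3 to 5. For PRDX6 it was 0.91 and 0.91 with PEX19, 0.90 and 0.88 with SQSTM1 and 0.72 and 0.96 with EPHX1 in that order.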

How the data were processed

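RNA of 20 fat and 20 liver samples was hybridised to 1-colour biotin-labelled Affymetrix porcine arrays, per the labels' protocols. Each deposited file holds linear intensity for single probe sets, made by the authors with affy and MAS5, per the submitters' processing notes, which give no version. The mean of each array after trimming 2% at each end was 500.09 to 500.15, so no scaling was added, and 124 control probe sets were left out. Log2 intensity was analysed for probe sets that exceeded the 40th percentile of an array in 5 or more of a tissue's 20, with limma 3.58.1 in R 4.3.3 (group means, eBayes with trend). Tissues were compared in 1 fit of 40 arrays. Exact permutation tests used scipy 1.17.1 and numpy 2.4.6 in Python 3.11.15. The fit was tested on simulated data. The arrays give no counts, and their number limits the precision. The enzymes and lists were chosen with earlier results of these data known. Genes were named by rule: every probe set of the 4 enzymes, up to 3 genes per list and direction with the smallest p that passed, or the 1 with the smallest p, and the 3 genes most like each enzyme. Alternatives covered normalization, filter, offset, trend, blocks, covariates, averaged probe sets and left-out arrays. Sequences were not used here.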

Additional observations from a re-analysis of the deposited data

Results flagged for a closer look

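Of 48 groups of 5 arrays, 3 held an array far from the other 4 by Dixon's test, and chance gives about 1 group in 20. PRDX6 in high RFI ad libitum fat was 7161 in replicate 3, where the other 4 lay between 10156 and 10266. NQO1 in low RFI restricted fat was 1324 in replicate 3, above the other 4 at 879 to 941. TXNRD1 Ssc.22447.1.S1_at in low RFI ad libitum fat was 234 in replicate 4, below the other 4 at 373 to 423.

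The diet effect differed between fat and liver in a limma test of the difference itself for 4 probe sets. The difference, fat minus liver, was -0.57 for PRDX2, -1.01 for NQO1, -0.82 for TXNRD1 Ssc.6097.1.S1_a_at and -0.71 for TXNRD1 Ssc.6097.1.S1_at.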

How the results depend on the processing

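On arrays numbered 1 and 2 alone, 2 of 6 probe sets passed for diet in fat: PRDX2 was -0.53, PRDX6 -0.60, TXNRD1 Ssc.22447.1.S1_at 0.33 and Ssc.6097.1.S1_at -1.17 without passing. On those numbered 3 to 5, 3 passed, with Ssc.22447.1.S1_at at 0.62, Ssc.6097.1.S1_a_at at -0.71 and Ssc.6097.1.S1_at at -0.68 below the threshold. These subsets hold fewer arrays, and calls over all fat probe sets came to 469 and 2908 in that order, against 3999 on all arrays. With control ratios as covariates 3 passed, where calls over all fat probe sets came to 1840. Ssc.22447.1.S1_at was then 0.27, Ssc.6097.1.S1_a_at -0.85 and Ssc.6097.1.S1_at -0.73. With hepatocyte markers as covariate Ssc.22447.1.S1_at was 0.46 and lost its call, and the mean over TXNRD1 probe sets, which joins opposite signs, was -0.46. For results that lost a call or turned sign in other settings the cause was not tested.

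The liver call of PRDX6 was lost with no filter (-0.45), no intensity trend (-0.45), numbers 1 and 2 (-0.50), numbers 3 to 5 (-0.42) and erythroid markers as covariate (-0.46), which leave 0 of 6 passing, and across left-out arrays its effect was -0.52 to -0.38 and the count 0 to 1. PRDX2 in liver turned to -0.026 with erythroid markers and ranged from -0.023 to 0.038 across left-out arrays, and Ssc.22447.1.S1_at in liver turned to 0.061 with numbers 1 and 2 and ranged from -0.12 to 0.016.

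For the diet effect in fat minus liver, numbers 1 and 2 gave -0.54 (PRDX2), -1.32 (Ssc.6097.1.S1_a_at) and -0.91 (Ssc.6097.1.S1_at), and numbers 3 to 5 gave -0.89 (NQO1), -0.48 and -0.58, none passing. Both Ssc.6097.1 probe sets also lost the call with no filter and with no trend (-0.82 and -0.71 in each), and ranged from -0.96 to -0.68 and from -0.82 to -0.60 across left-out arrays. PRDX6 turned to 0.070 under quantile normalization. For the level in fat minus liver, NQO1 on numbers 1 and 2 was 0.28 without passing, Ssc.6097.1.S1_a_at turned to -0.10 under quantile normalization, and Ssc.6097.1.S1_at passed under quantile normalization (-0.42) and with the replicate block (-0.25), at -0.31 to -0.19 across left-out arrays. PRDX2 and PRDX6 passed for level in all 49 settings, but the size varied, from 0.69 to 1.16 for PRDX2 and from -0.94 to -0.43 for PRDX6.

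No line or interaction result of the 6 probe sets passed in any setting run, and signs turned as follows. Line: NQO1 in fat 0.011 on numbers 1 and 2 (-0.16 to 0.050 across left-out arrays), and with the mean over probe sets Ssc.6097.1.S1_a_at in fat 0.046 (-0.26 to 0.014) and Ssc.22447.1.S1_at in liver -0.065. Interaction in fat: PRDX2 0.12 on numbers 1 and 2, Ssc.22447.1.S1_at 0.0026 with the mean over probe sets, and Ssc.6097.1.S1_a_at 0.031 on numbers 1 and 2, 0.017 with erythroid markers and 0.0026 with the mean (-0.32 to 0.25). Interaction in liver: on numbers 1 and 2 PRDX2 -0.020 and Ssc.22447.1.S1_at 0.14, and Ssc.22447.1.S1_at 0.015 under quantile normalization (-0.25 to 0.036); NQO1 0.31 on numbers 3 to 5 and 0.047 with control ratios (-0.25 to 0.093); Ssc.6097.1.S1_a_at 0.075 on numbers 3 to 5 (-0.18 to 0.083); and Ssc.6097.1.S1_at -0.16 to 0.047 across left-out arrays.

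List genes higher in fat numbered 2 (main 1) under quantile normalization, the stricter filter, the offset, the replicate block, the set of numbers, numbers 3 to 5, erythroid and muscle markers, 3 with the mean over probe sets, 0 on numbers 1 and 2 and with control ratios, and 1 to 3 across left-out arrays (3 without high RFI ad libitum replicate 3). List genes lower in fat numbered 8 on numbers 1 and 2. In liver 1 list gene was higher with the block and with control ratios, and lower ones numbered 0 with no filter, no trend, numbers 1 and 2 and erythroid markers, 2 with the block and with control ratios, 4 with the set of numbers, and 0 to 2 across left-out arrays (0 without any 1 of 13 of the 20).

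Correlations of same-numbered arrays ran from 0.02 to 0.39 in fat (median 0.20) and from -0.0043 to 0.30 in liver (median 0.18). For arrays of other numbers the medians were -0.055 in fat and -0.076 in liver. The same-numbered values were not above 0.1 throughout, so the numbers were not taken as pairs. Still, 13 of 20 fat and 12 of 20 liver arrays correlated best with their own number. With the replicate block all 6 fat calls passed (PRDX2 -0.55, NQO1 -1.28), and calls over all probe sets came to 5011 in fat, against 3999, and 328 in liver, against 144. Quantile normalization moved the median of all fat probe sets to 0.017, against 0.079, and the calls to 1822 higher and 1906 lower, against 2344 and 1655. Signal over background was not analysed here. The stricter filter left out Ssc.22447.1.S1_at in liver.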
